A study of Mus musculus with 2 samples.

Results

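Interferon-signature mature neutrophils are blood neutrophils past the granule-making stage whose RNA holds a high share of interferon-stimulated transcripts. Here they were 1348 of 27933 cell barcodes in 2 single-cell RNA libraries of mouse blood, 215 of 14334 in the library from old mice (24 months) and 1133 of 13599 in the library from young mice (2 months). Both libraries held cells sorted as live, CD45+, CD11b+ and Ly6G+ after lysis of red cells. Per the labels they were captured with the BD Rhapsody system. Transcripts were counted as unique molecular identifiers (UMIs), each standing for 1 captured transcript. No genotype, strain or treatment is given by the labels, both groups are labelled male, and how many mice gave cells to a library is not given. Each age has a single library and cells are not replicates, so no test was possible. Every difference below describes these 2 libraries, and the age and the library cannot be told apart.

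The cells were picked by their measured transcripts. A barcode counted as a mature neutrophil when it had at least 200 genes, at most 20% mitochondrial UMIs, at least 3% of its UMIs from S100a8 and S100a9, at least 1 UMI of Csf3r or Cxcr2, at most 5 UMIs of the monocyte genes Ccr2, F13a1, Vcan and Fn1, and under 0.1% of its UMIs from the granule genes Ltf, Camp and Ngp. That left 5286 old and 9250 young barcodes. An interferon-signature cell then had at least 5 UMIs and at least 0.15% of its UMIs from 9 genes (called the rule genes here): Ifit1, Ifit2, Ifit3, Isg15, Rsad2, Oasl1, Irf7, Cmpk2 and Usp18. The remaining 5071 old and 8117 young barcodes are the other mature neutrophils. Since the 9 genes chose the cells, their levels are a description, and so are those of genes that go with them from cell to cell.

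Type I interferons bind the receptor IFNAR1-IFNAR2, which activates the kinases JAK1 and TYK2. The kinases activate a transcription factor complex with STAT2 and IRF9, which binds interferon-stimulated response elements before many antiviral genes. Interferon gamma acts through its own receptor and a different element, called GAS. In mice, neutrophils with such a transcript programme are a known state of mature circulating cells.

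The core letters of the response element can be seen in the promoters of 4 of the 9 genes that picked the cells. The sequences below are RefSeq windows of build GRCm38.p6, each 300 bases long (250 before to 50 after the annotated start), read 5′ to 3′ on the gene's strand, with each match to GAAA, any 2 bases and GAAA, or on the other strand TTTC, any 2 bases and TTTC, in capitals. They are shown because Ifit1, Ifit3, Isg15 and Rsad2 are rule genes with a match, Ifit3b and Gbp2 are genes outside the rule with a match, and Ifnar1 is a receptor gene without one. The windows are chr19:34640639-34640938 (plus strand), chr19:34583279-34583578 (plus), chr4:156200769-156201068 (minus), chr12:26456403-26456702 (minus), chr19:34607707-34608006 (plus), chr3:142620413-142620712 (plus) and chr16:91484965-91485264 (plus).
Ifit1: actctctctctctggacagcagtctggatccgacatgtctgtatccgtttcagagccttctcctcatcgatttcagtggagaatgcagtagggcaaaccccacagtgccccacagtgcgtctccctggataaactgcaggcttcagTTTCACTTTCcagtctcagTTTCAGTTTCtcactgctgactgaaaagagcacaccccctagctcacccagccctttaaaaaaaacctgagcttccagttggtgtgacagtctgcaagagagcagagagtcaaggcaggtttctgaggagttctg
Ifit3: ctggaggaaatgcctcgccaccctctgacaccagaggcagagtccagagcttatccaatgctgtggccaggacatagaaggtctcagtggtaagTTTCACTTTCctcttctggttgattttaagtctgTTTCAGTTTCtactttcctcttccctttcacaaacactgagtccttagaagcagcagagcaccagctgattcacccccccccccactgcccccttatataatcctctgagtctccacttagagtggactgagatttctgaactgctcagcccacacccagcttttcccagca
Isg15: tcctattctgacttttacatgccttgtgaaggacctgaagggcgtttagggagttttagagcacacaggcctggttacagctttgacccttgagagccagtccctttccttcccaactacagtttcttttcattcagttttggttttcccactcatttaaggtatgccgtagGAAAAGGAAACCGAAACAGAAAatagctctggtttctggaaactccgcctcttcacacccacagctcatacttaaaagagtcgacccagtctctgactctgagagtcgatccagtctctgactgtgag
Rsad2: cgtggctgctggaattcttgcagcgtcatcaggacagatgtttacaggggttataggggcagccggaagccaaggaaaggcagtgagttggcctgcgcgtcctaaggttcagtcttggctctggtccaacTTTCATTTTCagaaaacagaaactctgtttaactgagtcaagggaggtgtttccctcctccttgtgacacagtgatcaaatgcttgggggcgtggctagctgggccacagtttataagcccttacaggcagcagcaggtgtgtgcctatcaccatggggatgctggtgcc
Ifit3b: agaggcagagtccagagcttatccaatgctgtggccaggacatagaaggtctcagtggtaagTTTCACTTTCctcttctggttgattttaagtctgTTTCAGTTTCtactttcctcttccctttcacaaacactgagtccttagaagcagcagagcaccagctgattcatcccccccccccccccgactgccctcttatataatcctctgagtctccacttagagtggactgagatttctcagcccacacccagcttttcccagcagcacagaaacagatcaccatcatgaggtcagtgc
Gbp2: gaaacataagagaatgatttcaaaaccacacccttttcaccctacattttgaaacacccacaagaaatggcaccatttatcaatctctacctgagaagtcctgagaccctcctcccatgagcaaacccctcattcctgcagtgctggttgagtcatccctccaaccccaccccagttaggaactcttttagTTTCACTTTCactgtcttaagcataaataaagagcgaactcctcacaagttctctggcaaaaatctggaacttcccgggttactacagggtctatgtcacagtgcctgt
Ifnar1: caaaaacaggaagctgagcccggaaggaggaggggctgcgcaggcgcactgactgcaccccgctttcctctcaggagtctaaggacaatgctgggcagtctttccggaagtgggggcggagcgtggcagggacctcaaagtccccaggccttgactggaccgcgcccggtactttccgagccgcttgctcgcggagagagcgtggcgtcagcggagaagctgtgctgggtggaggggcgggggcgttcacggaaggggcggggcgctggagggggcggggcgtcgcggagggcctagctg

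Ifit1 and Ifit3 each held 2 matches, Isg15 held 3 that overlap in a single run, and Rsad2 held 1, which begins 120 bases before the start. Of the 8 rule genes with a window, 4 held a match, against 3.99% of all 27025 genes with a window. Ifit2, Oasl1, Irf7 and Cmpk2 held no match, and Usp18 had no window. Among genes measured in both libraries (defined below) the share with a match was 5.08%. Among the interferon-stimulated genes outside the rule that were higher in these cells in both libraries (the 47 genes counted below), 17 of the 38 with a window (44.7%) held a match, as did 2 of the 9 such genes with a window that were not higher in both (22.2%) and 0 of the 8 receptor and kinase genes with a window. For the GAS core TTCNNNGAA the shares were 8 of those 38 genes (21.1%), 2 of the 8 receptor and kinase genes (25%) and 9.55% of all genes with a window. Genes measured in both libraries held it in 8.26%. A match is only a string of letters in this window and shows no binding.

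The picked cells carried the neutrophil transcripts that the rule had not used. Clec4d, a lectin receptor of neutrophils, stood at 854 CPM (the UMIs of a gene in a class, scaled to the same total for each class) in interferon-signature cells and 733 CPM in other mature cells of the old library, and at 1228 and 1180 CPM in the young library. Hdc, histidine decarboxylase, stood at 1613 and 1236 CPM in the old and 1492 and 1220 CPM in the young library. Mmp9, the gelatinase, was at 1356 and 1440 CPM in the old and 1051 and 1190 CPM in the young library. Ly6g, the gene of the sorted surface protein, had a UMI in 59.1% of interferon-signature and 77.4% of other mature cells of the old library, but in 17.7% and 20.5% of those of the young library. The lists of B cell, plasma cell, T cell, NK cell, dendritic, macrophage, eosinophil, basophil and progenitor markers each summed to at most 196 CPM in interferon-signature cells, with Elane, Ctsg, C1qa, Xcr1, Siglech and Jchain at 0 in both libraries. Classical monocyte markers summed to 464 CPM in interferon-signature and 366 CPM in other mature cells of the old library, and to 254 and 225 CPM in the young library. Non-classical monocyte markers summed to 223 and 182 CPM in the old and 208 and 236 CPM in the young library, and platelet markers to 679 and 580 CPM in the old and 370 and 274 CPM in the young library. Erythroid markers summed to 33413 and 15518 CPM in the old library, and to 4317 and 11518 CPM in the young library. In the old library 8 of 215 interferon-signature cells (3.72%) had at least 0.5% of their UMIs from these markers. So did 216 of 5071 other mature cells (4.26%). In the young library the shares were 1.24% and 3.04%. Against the labelled sex, Xist stood at 108 CPM in old and 53.7 CPM in young interferon-signature cells, while the Y-linked Eif2s3y and Kdm5d had no UMI in any mature cell. The Y-linked Ddx3y stood at 4.45 CPM in old and 24.2 CPM in young interferon-signature cells.

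The libraries differed in depth and in abundant genes. The old library had 128826996 UMIs with a median of 7265.5 per barcode, and the young library 69599479 with a median of 4246. Interferon-signature cells were the shallower class in the old library, with a median of 4197 UMIs against 6181 in other mature cells, but not in the young one, with 4157 against 4240. S100a8 and S100a9 took a median of 14.5% of the UMIs of an old interferon-signature cell and 21.8% of those of another old mature cell, and 9.38% and 9.94% in the young library. The barcode sequences of 53 cells occurred in both libraries, 2 old and 3 young interferon-signature cells among them. In bulk sums such as those used below, fewer cells with a transcript and less of it per cell cannot be told apart, so shares of cells are given for the genes that matter most.

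The 9 rule genes, which by construction are high in the picked cells, differed in how often other mature cells held them, from Ifit2 with a UMI in 0.434% of old and 0.604% of young ones to Isg15 in 21.7% and 19.8%. Ifit1, an RNA cap sensor that blocks translation of viral messages, stood at 496 CPM (95% interval 456 to 539) in interferon-signature cells and 8.83 (7.86 to 9.89) in other mature cells of the old library, and at 468 (450 to 487) and 16.9 (15.6 to 18.2) CPM in the young library. Ifit3, its binding partner, stood at 314 (282 to 348) and 3.82 (3.19 to 4.53) CPM in the old and 385 (368 to 402) and 10.5 (9.53 to 11.6) CPM in the young library. Both genes lay at a low level outside the picked cells, which the limits of the rule partly set. Isg15, a ubiquitin-like modifier, was at 957 (900 to 1016) and 48.8 (46.5 to 51.2) CPM in the old and 741 (717 to 764) and 61.1 (58.7 to 63.6) CPM in the young library. Rsad2, the radical SAM enzyme viperin, was at 804 (752 to 858) and 32.3 (30.5 to 34.3) CPM in the old and 958 (931 to 984) and 69.7 (67.1 to 72.4) CPM in the young library. Ifit3 and Ifit1 lie side by side with their relatives, at chr19:34583531-34588731 and chr19:34640871-34650009 (GRCm38, plus strand). Cmpk2, a nucleotide kinase whose start lies 12752 bases from that of Rsad2 on the opposite strand of chromosome 12, was at 183 and 9.33 CPM in the old and 265 and 23.9 CPM in the young library. Intervals are exact 95% Poisson intervals and, like all intervals here, cover counting error only.

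The remaining rule genes followed the same order. Ifit2 was at 71.1 and 0.704 CPM in interferon-signature and other mature cells of the old library, and at 53.9 and 1.44 CPM in the young library. Usp18, the protease that removes ISG15 and restrains the receptor, was at 138 and 8.22 CPM in the old and 178 and 14.9 CPM in the young library. Oasl1 was at 273 and 21.8 CPM in the old and 375 and 41.0 CPM in the young library. Irf7, the transcription factor that drives type I interferon genes, was the least separated, at 262 and 36.9 CPM in the old (7.10-fold) and 277 and 45.5 CPM in the young library (6.08-fold). Per cell, Isg15 had a UMI in 87.0% of interferon-signature and 21.7% of other mature cells of the old library, Ifit3 in 39.5% and 1.95%. In the young library the shares were 79.3% and 19.8% for Isg15 and 46.8% and 3.81% for Ifit3.

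No gap separated the picked cells from the rest. In the old library 2610 of the 5286 mature cells (49.4%) had no rule gene UMI, and in the young library 3725 of 9250 (40.3%). In bins of 0.05%, the number of cells declined past the limit of 0.15% with no empty bin beside it. Just inside, at 0.15% to 0.20%, were 66 old and 311 young interferon-signature cells. Just outside, at 0.10% to 0.15% with at least 4 UMIs, were 130 old and 475 young cells. Interferon-signature cells at 1% or more numbered 10 of 215 in the old and 49 of 1133 in the young library. The class is a range cut from a measure that rests on few UMIs, a median of 12 in interferon-signature cells of both libraries, and whether it is a separate cell type was not tested.

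**Figure D1:**
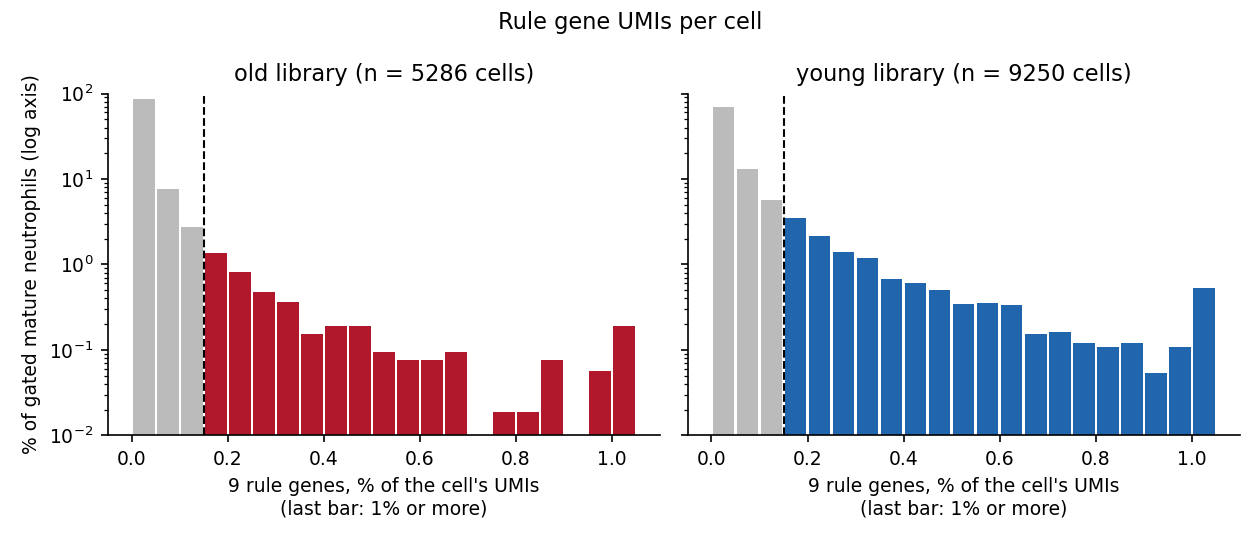
Share of each mature neutrophil's UMIs that came from the 9 rule genes, in bins of 0.05% (last bar, 1% or more), as the percentage of gated cells on a log axis, for the old (left) and young (right) library. Coloured bars are at or above the limit of 0.15% (dashed line), and the counts fall across it without a gap.

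Barcodes outside the neutrophil gate were set against the limits. Among those passing the gene and mitochondrial gates with S100a8 and S100a9 under 3%, 57 of 2969 old ones (1.92%, 1.46 to 2.48) met both limits. In the young library 242 of 3456 did (7.0%, 6.17 to 7.90). This group mixes cell types, which were not assigned here. Of 205 old and 370 young barcodes rich in B cell markers (at least 0.5% of UMIs, with S100a8 and S100a9 under 3%), 0 met both limits, which allows a share of up to 1.46% and 0.811% (3 counts of the total, with exact 95% upper bounds of 1.78% and 0.992%), at median depths of 7809 and 6064 UMIs. Their interferon-stimulated genes outside the rule, summed over the 95 genes described below, stood at 7379 CPM in the old and 9739 CPM in the young library, so they did not lack such transcripts. Barcodes with most of their UMIs from haemoglobin and other erythroid markers behaved differently: 48 of 1288 old (3.73%) and 13 of 859 young ones (1.51%) met both limits. Those barcodes carried on average 1.25 UMIs of Rsad2 in the old and 0.811 in the young library, but only 0.0101 and 0.0547 of Ifit1, whereas interferon-signature cells had 4.20 and 4.41 of Rsad2 and 2.60 and 2.15 of Ifit1. Rsad2 and, at 0.360 and 0.331 UMIs, Isg15 were thus also found in barcodes rich in red cell RNA. In 34 of the 215 old and 178 of the 1133 young interferon-signature cells, Rsad2 gave at least 50% of the rule gene UMIs. Their median erythroid share was 1913 CPM per cell in the old and 1381 CPM in the young library, close to the 1859 and 1358 CPM of all interferon-signature cells. A median does not show that the top 5% of old interferon-signature cells held 95.3% of their erythroid UMIs. With Rsad2 left out of the rule, the summed erythroid markers of old interferon-signature cells were 21545 in place of 33413 CPM. In the young library they were 4424 in place of 4317 CPM. The part of red cell RNA in the Rsad2 counts was not tested.

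Interferon-signature cells were a smaller share of mature neutrophils in the old library. They were 215 of 5286 (4.07%, exact 95% binomial interval 3.55 to 4.64) in the old and 1133 of 9250 (12.2%, 11.6 to 12.9) in the young library, so that the young share was 3.01 times the old one. Thinning each cell to 2000 UMIs, with 3 UMIs as the limit, gave 330 of 5232 (6.31%, 5.66 to 7.0) in the old and 1427 of 9189 (15.5%, 14.8 to 16.3) in the young library, leaving out 54 and 61 shallower cells. Without Rsad2 in the sum the shares were 2.84% in the old and 8.39% in the young library. The granule gate kept 5286 of 10088 old and 9250 of 9439 young barcodes. Of the removed cells with 0.1% to 1% of UMIs from Ltf, Camp and Ngp, 82 of 3038 old (2.70%) and 3 of 120 young ones (2.50%) met both limits. Of those with 1% to 5%, 4 of 1184 old and 0 of 40 young ones did, and the 0 of 40 in the young library has an exact 95% upper bound of 8.81%. Of those with 5% or more, 1 of 580 old and 1 of 29 young ones did (3.45%, 0.0873 to 17.8, in the young library).

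The gap between the libraries depended on depth and on the S100 share, which moved with the class in the old library. Under 2000 UMIs, 3 of 54 old (5.56%, 1.16 to 15.4) and 3 of 61 young ones (4.92%, 1.03 to 13.7) were interferon-signature cells. Among cells of 2000 to under 4000 UMIs, 92 of 970 old (9.48%, 7.71 to 11.5) and 496 of 3783 young ones (13.1%, 12.1 to 14.2) were interferon-signature cells. At 4000 to under 8000 UMIs the shares were 3.05% (2.46 to 3.73) in the old and 11.8% (10.9 to 12.8) in the young library. At 8000 UMIs or more they were 2.29% (1.55 to 3.26) and 11% (8.75 to 13.6). From 2000 UMIs on, the young intervals of neighbouring bins overlapped, while the old share was highest in the bin of 2000 to under 4000 UMIs. Split by the S100a8 and S100a9 share, cells at 3% to 10% gave 9.41% (7.2 to 12) in the old and 13.4% (12.4 to 14.4) in the young library, and cells at 20% or more gave 1.95% (1.48 to 2.51) and 8.26% (6.24 to 10.7). In cells that were both shallow (2000 to under 4000 UMIs) and low in S100 (3% to 10%), 42 of 349 old (12%, 8.81 to 15.9) and 334 of 2384 young ones (14%, 12.6 to 15.5) were interferon-signature cells, and these intervals overlap. At the same S100 share but 4000 to under 8000 UMIs, 6 of 135 old (4.44%, 1.65 to 9.42) and 245 of 1871 young ones (13.1%, 11.6 to 14.7) were, and these do not. The part of depth and of the S100 share in the difference between libraries was not tested.

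**Figure D2:**
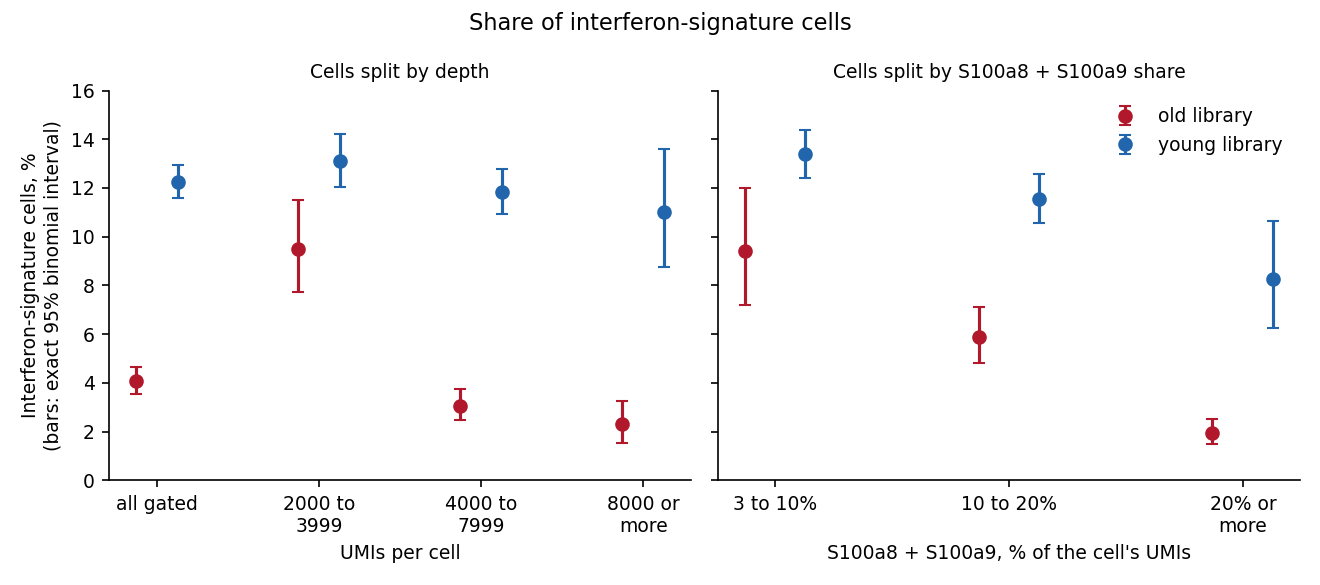
Interferon-signature cells as a percentage of gated mature neutrophils, split by UMIs per cell (left) and by the share of UMIs from S100a8 and S100a9 (right), with exact 95% binomial intervals, old library in red left of the young library in blue. The old share runs from 9.48% at 2000 to under 4000 UMIs to 2.29% at 8000 or more, and the young share from 13.1% to 11%.

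Genes outside the rule were then compared between interferon-signature and other mature cells within each library, as log2 of the ratio of CPM with 1 CPM added. A gene was measured when the mean of both classes was at least 20 CPM, and called from 1.5-fold. Of 4161 genes measured in the old library 309 were higher (7.43%) and 95 lower (2.28%), and of 4558 in the young library 145 were higher (3.18%) and 17 lower (0.373%). The calls in the old library, made on 215 cells, were 76.5% higher ones, against 66.1% when ratios were centred on the median gene and 58.8% when S100a8 and S100a9 were left out of the totals. Both libraries measured 4012 genes, of which 115 were higher in both (2.87%) and 5 lower in both (0.125%). Of these 115, 73 were rule genes or members of an interferon-pathway list and 42 were in no such list.

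Interferon ligand genes were close to undetected. The 12 listed ligand genes, Ifnb1, 6 interferon alpha genes, Ifne, Ifnk, Ifng and the interferon lambda genes Ifnl2 and Ifnl3, together had 0 UMIs in old interferon-signature cells, which allows up to 2.67 CPM (3 counts, with an exact 95% upper bound of 3.28 CPM), beside 0.0880 CPM (0.0182 to 0.257) in other mature cells. In the young library they had 0.959 CPM (0.311 to 2.24) in interferon-signature and 0.155 CPM (0.0568 to 0.337) in other mature cells. Without a pseudocount the log2 ratio of these sums was 2.63 (0.58 to 4.61). Both sums lay far below the floor of 20 CPM, so the ratio was not called. The young interferon-signature cells held 4 UMIs of Ifng and 1 of Ifnk.

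Receptor and kinase genes stood at close levels inside and outside the class. Of the 8 measured genes 0 were higher in either library, 1 was lower in the old and 0 in the young library, with median log2 ratios of -0.08 and -0.02. Over all measured genes 7.43% were higher and 2.28% lower in the old library, and 3.18% and 0.373% in the young one. Ifnar1 was at 43.6 (32.2 to 57.6) and 43.5 (41.3 to 45.8) CPM in interferon-signature and other mature cells of the old library, and at 67.9 (61.0 to 75.4) and 68.6 (66.0 to 71.2) CPM in the young library. Ifnar2 was at 128 and 149 CPM in the old and 174 and 174 CPM in the young library. Ifngr1, a subunit of the interferon gamma receptor, was at 210 and 239 CPM in the old and 160 and 175 CPM in the young library. Jak1 was at 368 and 343 CPM in the old and 606 and 574 CPM in the young library. The gene that was lower in the old library was Ifnlr1, the interferon lambda receptor chain, at 24.9 (16.5 to 36.0) and 38.9 (36.8 to 41.0) CPM, while the young library had 35.9 and 37.7 CPM.

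Stat2 and Irf9, transcription factors of the type I response, were higher in the class in both libraries. Stat2 was at 71.1 and 16.1 CPM in interferon-signature and other mature cells of the old and 91.5 and 24.6 CPM in the young library, and Irf9 at 117 and 55.5 CPM in the old and 176 and 88.5 CPM in the young library. Irf1 and Irf2 were within 1.5-fold in both libraries, with log2 ratios between 0.28 and 0.56. Irf5 was higher in the old library, at 48.9 (36.8 to 63.6) and 20.9 (19.4 to 22.5) CPM, and within 1.5-fold in the young library. In all, 4 of 6 measured transcription factor genes were higher in the old and 3 of 6 in the young library. The shares over all measured genes were 7.43% and 3.18%.

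Cytosolic nucleic acid sensors followed. The receptors of RNA or unusual nucleic acids, Ddx58 (RIG-I), Ifih1 (MDA5), Dhx58 (LGP2), Zbp1 and Ddx60, were higher in both libraries, 5 of 6 measured sensors in the old and 5 of 7 in the young library. All measured genes gave 7.43% in the old and 3.18% in the young library. Ifih1 stood at 121 (101 to 143) and 19.4 (17.9 to 20.9) CPM in interferon-signature and other mature cells of the old library, and at 202 (190 to 215) and 39.2 (37.2 to 41.2) CPM in the young library. Zbp1, a sensor of Z-form nucleic acid that can trigger cell death, was at 148 (127 to 173) and 28.2 (26.4 to 30.0) CPM in the old and 87.7 (79.8 to 96.1) and 16.6 (15.3 to 17.9) CPM in the young library. Aim2, a sensor of double-stranded DNA, was within 1.5-fold, at 37.3 and 32.3 CPM in the old and 83.4 and 90.7 CPM in the young library. Tlr9 had no UMI in the interferon-signature cells of either library, and Tlr3 had 1 in each.

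The effector genes were then taken as 7 lists pooled, which hold 99 interferon-stimulated genes (ISGs) and none of the rule genes. Of these, 95 were found in the files, and Mx1, Mx2, Oas1b and Mnda were not analysed here. In the old library 52 of 58 measured genes were higher and 0 lower, with a median log2 ratio of 1.73 beside 0.07 over all measured genes. In the young library 52 of 61 were higher and 0 lower, with a median of 1.49 beside -0.04. Of the 57 measured in both libraries 47 were higher in both, beside 2.87% of all genes measured in both. Their summed level was 16503 (16266 to 16742) and 6134 (6108 to 6160) CPM in interferon-signature and other mature cells of the old library, 2.69-fold apart. In the young library it was 20397 (20275 to 20520) and 8830 (8800 to 8859) CPM, 2.31-fold apart. Genes were measured only where the mean of the classes reached the floor, so a gene that is high in the class alone passes more easily, and the counts are a description.

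**Figure D3:**
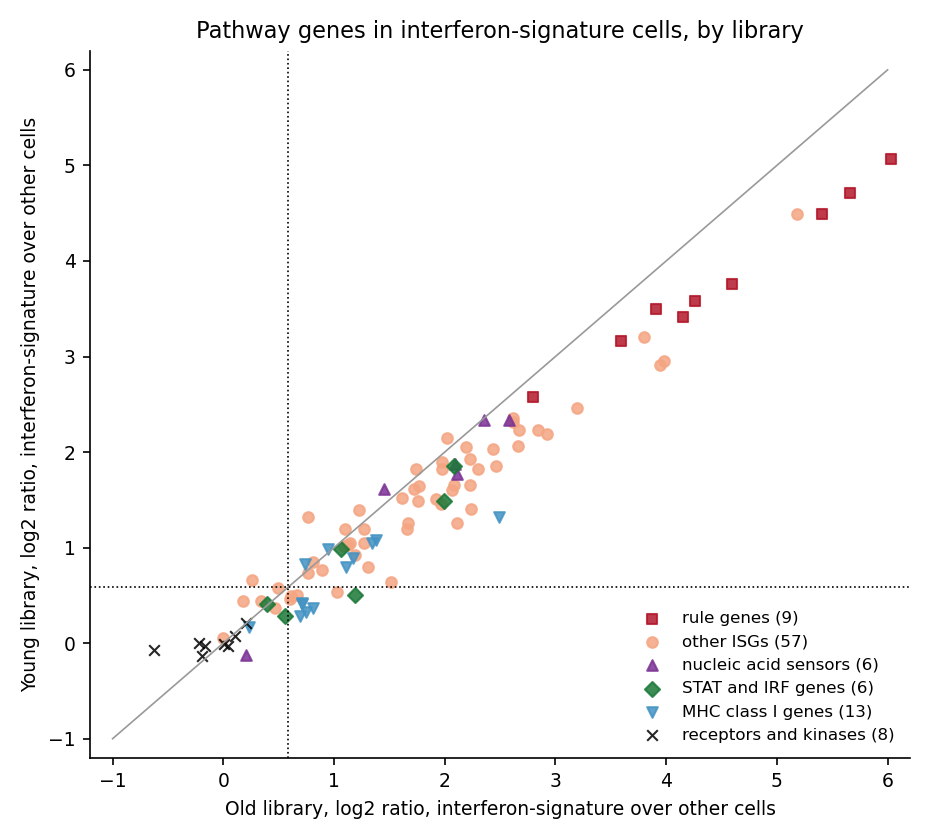
Log2 ratio of CPM in interferon-signature over other mature cells for the genes of 6 pathway lists measured in both libraries, old library on the x axis and young on the y axis. Dotted lines mark 1.5-fold and the grey line equal ratios. Receptors and kinases lie around 0, Stat2, Ifih1 and Zbp1 between 1 and 3, and the rule genes that chose the cells at the upper right.

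Among antiviral effectors that act on RNA, Ifit3b had the largest ratio of all genes outside the rule. It stood at 177 (153 to 203) and 3.9 (3.27 to 4.63) CPM in interferon-signature and other mature cells of the old library, and at 255 (242 to 269) and 10.4 (9.38 to 11.4) CPM in the young library. It is a near copy of the rule gene Ifit3, as their windows above show, and reads may have been split between them, so its value is uncertain. The same holds for Ifit1bl2, a relative of Ifit1. Oasl2 was at 1142 and 301 CPM in the old and 1276 and 448 CPM in the young library. Eif2ak2, the kinase PKR that stops translation on viral RNA, was at 104 and 22 CPM in the old and 117 and 27.3 CPM in the young library. Isg20, an exonuclease, was at 284 and 56.8 CPM in the old and 203 and 56.5 CPM in the young library. Of 13 measured genes of this list 12 were higher in the old and 10 in the young library. The background of all measured genes was 7.43% and 3.18%.

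ISG15 conjugation genes differed from each other. Herc6, the mouse ligase of ISG15, stood at 233 (206 to 263) and 15.8 (14.5 to 17.2) CPM in the old and 241 (228 to 255) and 25.3 (23.7 to 26.9) CPM in the young library. Uba7, its activating enzyme, was at 54.2 and 23.3 CPM in the old and 47.8 and 24.7 CPM in the young library. Ube2l6, the conjugating enzyme, was at 44.5 (33.0 to 58.6) and 13.7 (12.5 to 15) CPM in the old library, but at 12.3 (9.45 to 15.7) and 8.41 (7.52 to 9.38) CPM in the young one. Herc6 thus had far the larger ratio in both libraries.

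All 7 measured PARP and partner genes were higher in both libraries, beside 2.87% of all genes measured in both. Rnf213, a large ubiquitin ligase that attacks intracellular bacteria, was at 230 (203 to 260) and 36.8 (34.8 to 38.9) CPM in the old and 359 (343 to 376) and 69.4 (66.8 to 72.1) CPM in the young library. Parp14, a transferase of ADP-ribose, was at 201 and 35.7 CPM in the old and 243 and 66.5 CPM in the young library.

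Interferon-inducible GTPases, which coat and disrupt vacuoles of pathogens and are strongly induced by interferon gamma, were higher throughout among those measured, 6 of 6 in the old and 7 of 7 in the young library. Beside them, 7.43% and 3.18% of all measured genes were higher. Ifi47 stood at 104 (86.0 to 125) and 5.66 (4.89 to 6.52) CPM in the old and 69.1 (62.1 to 76.6) and 8.08 (7.21 to 9.02) CPM in the young library. Gbp2 was at 321 and 58.6 CPM in the old and 218 and 52.6 CPM in the young library, and Irgm1 at 77.3 and 9.89 CPM in the old and 101 and 20.8 CPM in the young library. Of the 15 listed GTPases, 9 were below the floor in the old library. Members of this family resemble each other, so reads may be shared between them.

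Schlafen genes, some of which restrain translation and proliferation, spread over a wide range. Slfn5 stood at 370 (335 to 407) and 23.1 (21.5 to 24.8) CPM in interferon-signature and other mature cells of the old library, and at 616 (595 to 638) and 80.9 (78.1 to 83.7) CPM in the young library. Slfn8 was at 127 and 13 CPM in the old and 236 and 42.0 CPM in the young library. Slfn4, a gene of activated myeloid cells, had a UMI in 91.2% of interferon-signature and 70.2% of other mature cells of the old library, and in 90.3% and 59.2% of those of the young library. Its level was 1172 (1109 to 1237) and 288 (282 to 294) CPM in the old and 1336 (1304 to 1367) and 301 (296 to 307) CPM in the young library. Slfn1 and Slfn2 had log2 ratios between 0.50 and 0.76.

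Of the IFI200 family of DNA-binding proteins, Ifi204 alone reached the floor in both libraries, at 248 (220 to 279) and 31.7 (29.9 to 33.7) CPM in the old and 452 (434 to 471) and 98.2 (95.1 to 101) CPM in the young library. These genes lie in a cluster of similar copies, which makes their split of reads uncertain. Among all measured genes 7.43% were higher in the old and 3.18% in the young library. Among the other antiviral genes 18 of 22 measured were higher in the old and 17 of 22 in the young library. They included Xaf1, a promoter of apoptosis, at 54.2 and 7.69 CPM in the old and 48.3 and 9.55 CPM in the young library, and Rtp4 at 527 and 125 CPM in the old and 652 and 213 CPM in the young library. Trim30b and Shisa5 were within 1.5-fold in both.

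**Figure D4:**
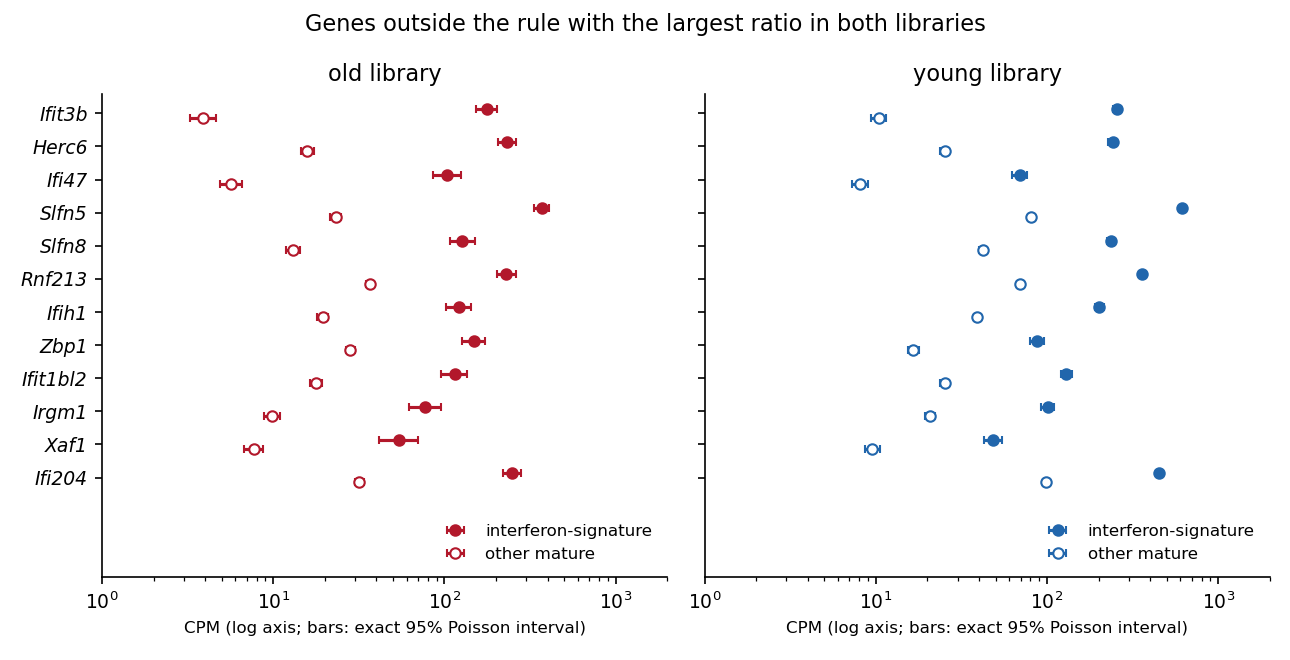
CPM (log axis) of the 12 genes outside the rule with the largest ratio in both libraries, in interferon-signature cells (filled) and other mature cells (open), old library left and young right, with exact 95% Poisson intervals. In each library the filled and open intervals of every gene are apart, from Ifit3b at the top to Ifi204 at the bottom.

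Ifitm genes, whose proteins block viruses at the cell membrane, differed among themselves. Ifitm3 stood at 2801 (2704 to 2901) and 1980 (1965 to 1995) CPM in interferon-signature and other mature cells of the old library (log2 ratio 0.50) and at 1867 (1830 to 1905) and 919 (909 to 928) CPM in the young library (1.02). Ifitm1, Ifitm2 and Ifitm6 had log2 ratios from -0.56 to -0.35 in the old and from -0.07 to 0.17 in the young library. Outside the class Ifitm3 was already in 97.9% of old and 90.4% of young cells. Over steps of the rule gene share (under 0.05%, 0.05% to 0.15%, 0.15% to 0.3%, 0.3% to 0.6% and 0.6% or more), Ifitm3 stood at 1948, 2274, 2353, 3086 and 4440 CPM in the old and at 833, 1228, 1513, 1974 and 3167 CPM in the young library.

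MHC class I presentation genes were moderately higher. Of the measured genes 13 of 14 were higher in the old and 7 of 13 in the young library, with median log2 ratios of 0.88 and 0.80. Taken over all measured genes, 7.43% and 3.18% were higher. Nlrc5, the transactivator of class I genes, stood at 54.2 (41.5 to 69.7) and 8.83 (7.86 to 9.89) CPM in the old and 40.9 (35.6 to 46.7) and 15.7 (14.5 to 17.0) CPM in the young library. Tap1, a peptide transporter subunit, was at 114 and 43.1 CPM in the old and 118 and 55.1 CPM in the young library. Psmb8, an immunoproteasome subunit, was at 236 and 92.4 CPM in the old and 218 and 105 CPM in the young library. The heavy chain H2-D1 was within 1.5-fold in both libraries, at 2196 and 1875 CPM in the old and 2233 and 1982 CPM in the young library.

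Class II genes stood lower. Cd74, the invariant chain, was at 31.1 (21.7 to 43.3) and 71.1 (68.3 to 74.0) CPM in the old and 65.6 (58.8 to 72.9) and 116 (113 to 119) CPM in the young library, and H2-Aa at 13.3 (7.46 to 22) and 27.7 (25.9 to 29.5) CPM in the old and 25.3 (21.2 to 30.0) and 39.2 (37.3 to 41.2) CPM in the young library. These are genes of antigen-presenting cells and their direction was not stable. Without cells rich in markers of another cell type the log2 ratios in the old library were 0.31 for Cd74 and 0.36 for H2-Aa, and after thinning those in the young library were 0.25 and 0.34. B cell markers summed to 81.8 CPM in interferon-signature and 156 CPM in other mature cells of the old library, and to 196 and 213 CPM in the young library.

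Genes of secreted products differed widely in level. Of the measured interferon-induced cytokines and chemokines, 2 of 4 were higher in the old and 1 of 3 in the young library. Of the measured cytokines and chemokines of neutrophils, 3 of 9 were higher in the old and 0 of 7 in the young library. Over all measured genes the shares were 7.43% and 3.18%. Cxcl10, a chemokine for T cells that interferon gamma induces, had a UMI in 2 of 215 old and 12 of 1133 young interferon-signature cells, and in 3 of 5071 old and 12 of 8117 young other mature cells. Its 81 UMIs in young interferon-signature cells included 60 from a single cell. Ccl5 was at 64.9 and 49.4 CPM in interferon-signature and other mature cells of the old and 84.6 and 50.1 CPM in those of the young library. Il15 was at 343 and 282 CPM in the old and 438 and 396 CPM in the young library. Il1b, the main inflammatory cytokine message of neutrophils, was at 3743 and 2731 CPM in the old and 2941 and 2858 CPM in the young library, within 1.5-fold in both.

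Inhibitors that the pathway induces were mixed. Cd274, which encodes the checkpoint ligand PD-L1, stood at 115 (95.8 to 136) and 25.7 (24.0 to 27.5) CPM in interferon-signature and other mature cells of the old library and at 114 (105 to 124) and 41.4 (39.4 to 43.5) CPM in the young library. It had a UMI in 31.6% of interferon-signature and 11.4% of other mature cells of the old library, and in 28.8% and 13.7% of those of the young library. Lgals9, a ligand of TIM-3, was at 155 and 87.0 CPM in the old and 186 and 88.0 CPM in the young library. The signalling inhibitor Socs1 was below the floor, at 15.1 and 4.43 CPM in the old and 15.2 and 7.04 CPM in the young library, and of the 5 measured feedback inhibitors, Socs3 among them, 0 were higher in either library. Of the 5 measured checkpoint and suppressive genes, 3 were higher in the old and 2 in the young library. For both lists, the share over all measured genes was 7.43% in the old and 3.18% in the young library.

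Of the survival and death genes, 1 of 13 measured was higher in the old library (7.43% of all genes were) and 3 of 14 in the young library (3.18% of all genes were). Casp8, the initiator of receptor-driven death, was higher in both libraries, at 48.0 (36.1 to 62.6) and 18.8 (17.4 to 20.3) CPM in the old and 42.6 (37.2 to 48.6) and 21.2 (19.8 to 22.7) CPM in the young library. Casp1 was at 70.2 and 46.5 CPM in the old and 52.2 and 29.0 CPM in the young library. The survival gene Mcl1 was within 1.5-fold, at 1897 and 1812 CPM in the old and 1944 and 1906 CPM in the young library.

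The 12 genes with the smallest ratios in both libraries were Stfa2, Cstdc5, Crip1, Cd74, H2-Aa, Nhlrc2, Bank1, Pou2f2, Ctsl, Zdhhc3, Aatk and Snrpg, and the 5 lower by 1.5-fold in both were the leading 5. Stfa2, a stefin that inhibits cysteine proteases, stood at 30.2 (20.9 to 42.2) and 84.0 (81.0 to 87.2) CPM in interferon-signature and other mature cells of the old library, and at 12.9 (9.96 to 16.3) and 38.9 (36.9 to 40.9) CPM in the young library. Cstdc5, of the same protease inhibitor family, was at 55.1 and 113 CPM in the old and 39.5 and 80.5 CPM in the young library. Crip1, a small zinc-binding protein, was at 46.2 and 85.5 CPM in the old and 19.0 and 42.9 CPM in the young library. Stefin genes are near copies of each other, so reads may be shared among them. Bank1, a B cell scaffold gene, had a log2 ratio of 0.36 in place of -0.68 in the old library once cells rich in other markers were left out.

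Genes of neutrophil state gave different counts in the 2 libraries. Of 14 immediate early genes, 4 were higher in the class in the old and 0 in the young library, with median log2 ratios of 0.44 and 0.02. Of all measured genes, 7.43% were higher in the old and 3.18% in the young library. Atf3, a stress-induced factor, stood at 76.5 (61.2 to 94.4) and 25.6 (24.0 to 27.4) CPM in the old, but at 54.1 (48.0 to 60.8) and 51.0 (48.8 to 53.3) CPM in the young library. Egr1 stood at 30.2 (20.9 to 42.2) and 10.6 (9.56 to 11.8) CPM in the old and 77.1 (69.8 to 85) and 69.2 (66.6 to 71.8) CPM in the young library. Cxcr4, the receptor of marrow homing, was at 338 and 206 CPM in the old and 444 and 433 CPM in the young library. Csf1, the macrophage growth factor, was at 92.5 and 43.0 CPM in the old and 179 and 138 CPM in the young library. It had a UMI in 26.5% of interferon-signature and 17.2% of other mature cells of the old library, and in 39.6% and 34.9% of those of the young library. In each of these 4 genes the other mature cells of the old library had the lowest level of the 4 classes. No test of the difference between libraries was possible.

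Of 11 measured S100 and abundant secreted genes, 2 were lower in the class in the old library, Wfdc17 and Wfdc21, and 0 in the young library. Among all measured genes 2.28% were lower in the old and 0.373% in the young library. S100a8, used by the gate, stood at 85743 (85203 to 86286) and 114314 (114200 to 114427) CPM in interferon-signature and other mature cells of the old library, and at 50009 (49817 to 50202) and 53450 (53377 to 53522) CPM in the young library. Wfdc17 was at 5884 and 10023 CPM in the old and 1738 and 1901 CPM in the young library, and Wfdc21 at 2294 and 4010 CPM in the old and 938 and 1095 CPM in the young library. Retnlg, a secreted protein of mature neutrophils, was at 16790 and 22848 CPM in the old and 6590 and 7495 CPM in the young library. S100a8 and Retnlg were within 1.5-fold in both libraries. Cxcr2 differed little, at 1315 and 1247 CPM in the old and 1761 and 1665 CPM in the young library.

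Within the mature cells the other ISGs were higher at each higher step of the rule gene share, below the limit as well as above it. In old cells under 0.05%, at 0.05% to 0.15%, and in interferon-signature cells at 0.15% to 0.3%, 0.3% to 0.6% and 0.6% or more, the 95 pooled genes stood at 5809, 9109, 13864, 17021 and 28795 CPM. The same steps in the young library gave 7935, 12069, 16641, 21870 and 33484 CPM. Intervals of neighbouring steps did not overlap in either library. Cd274 stood at 23.1, 49.4, 101, 94.3 and 232 CPM in the old and 35.8, 61.6, 85.2, 115 and 236 CPM in the young library. The 9 receptor and kinase genes together stood at 1159, 1153, 1200, 969 and 1076 CPM in the old and 1534, 1547, 1581, 1583 and 1477 CPM in the young library. Receptor transcripts thus showed no such rise.

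**Figure D5:**
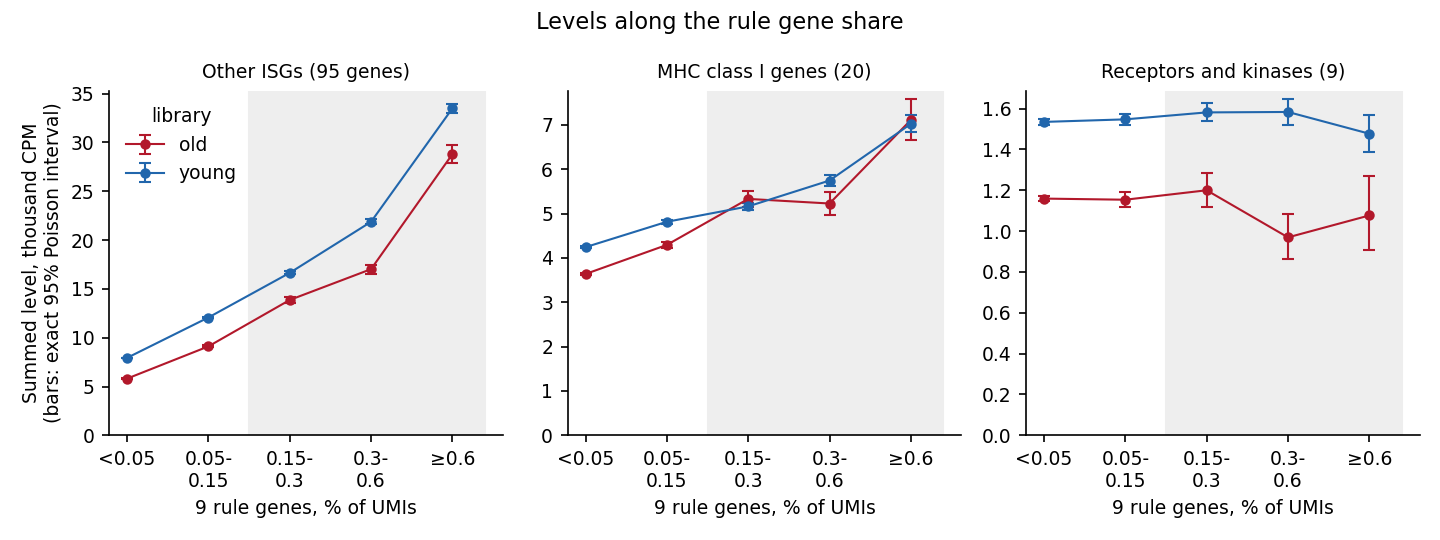
Summed CPM (the axis counts kilo-CPM, with exact 95% Poisson intervals) of the pooled ISGs, MHC class I genes and receptors and kinases in mature neutrophils binned by the share of UMIs from the 9 rule genes, old library red and young blue. The shaded bins are interferon-signature cells, where pooled ISGs run from 13864 to 28795 CPM in the old and 16641 to 33484 CPM in the young library.

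The class was uneven in which rule genes a cell showed. The median cell had 5 of the 9 detected in both libraries, but 21 old (9.77%) and 62 young cells (5.47%) had at most 2, and 8 old and 32 young cells had all 9. Pooled ISGs stood at 11511 (10795 to 12261) CPM in old cells with 1 or 2 rule genes and 21225 (20706 to 21753) CPM in those with 7 or more. The young values were 14422 (13942 to 14916) and 27090 (26807 to 27376) CPM. Even cells with 1 or 2 rule genes were therefore above the other mature cells, at 6134 CPM in the old and 8830 CPM in the young library. Isg15 led the rule gene UMIs of 75 old cells (34.9%) and 253 young cells (22.3%), and Rsad2 those of 64 old (29.8%) and 395 young cells (34.9%). Pooled ISGs in cells led by Isg15 stood at 15256 CPM in the old and 20472 CPM in the young library. In cells led by Rsad2 they stood at 15332 CPM in the old and 19999 CPM in the young library. Cells with at least 50% of rule gene UMIs from Rsad2 had 13743 CPM in the old and 16634 CPM in the young library. Barcodes rich in erythroid markers had 1241 and 1376 CPM. There a median of 927973 and 961335 CPM per cell came from those markers, so these levels cannot be set side by side. Over UMIs other than erythroid markers, the rule genes made up 0.364% in old and 0.222% in young barcodes rich in erythroid markers. In interferon-signature cells they made up 0.362% in the old and 0.372% in the young library.

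Once inside the class, old and young cells had close rule gene totals. The sum of the 9 genes was 3498 (3389 to 3609) CPM in old and 3699 (3647 to 3752) CPM in young interferon-signature cells, and 0 of the 9 differed by 1.5-fold. In other mature cells the sums were 171 (166 to 175) CPM in the old and 285 (280 to 290) CPM in the young library. Both limits of the rule bear on the sum in the class, so its closeness is partly set by the choice of cells. Isg15 made up 27.4% of the rule gene UMIs of old and 20% of those of young interferon-signature cells, and Rsad2 23% and 25.9%.

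Pooled ISGs were lower in old than in young interferon-signature cells on the plain scale, with a log2 ratio of -0.31 (-0.33 to -0.28), but equal within 0.02 on the log2 scale relative to the median gene, which itself stood at -0.29. In other mature cells the ratio was -0.53 (-0.53 to -0.52) beside a median gene of -0.42. Of 67 measured pooled genes 3 were higher and 14 lower in old interferon-signature cells, against 5.01% and 23.3% of all 4369 genes measured. In other mature cells 2 of 48 were higher and 18 lower, against 4.91% and 34.5% of all 4400. The lowest ratio belonged to Ifi207, at 29.3 (20.2 to 41.2) CPM in old and 84.4 (76.7 to 92.7) CPM in young interferon-signature cells, and Epsti1 was low too, at 381 (345 to 418) and 705 (683 to 728) CPM. Slfn8, Ifi204 and Parp9 had log2 ratios from -0.89 to -0.86. The highest belonged to Ube2l6, at 44.5 and 12.3 CPM, and Ifi211, at 32.0 and 12.9 CPM, followed by Sp140 at 115 and 66.6 CPM. Ifi47, Gbp2 and Isg20 had log2 ratios from 0.48 to 0.58.

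Some genes outside the pooled lists also differed between old and young interferon-signature cells, and between old and young other mature cells. Ifitm6 stood at 975 (918 to 1035) CPM in old and 187 (176 to 200) CPM in young interferon-signature cells, and at 1379 and 166 CPM in old and young other mature cells. Ly6g stood at 557 (515 to 603) and 75.4 (68.1 to 83.2) CPM in old and young interferon-signature cells, and at 815 and 88.6 CPM in old and young other mature cells. Lcn2, a protein of specific granules that binds bacterial siderophores, was at 2861 and 1040 CPM in old and young interferon-signature cells, and at 4086 and 1203 CPM in old and young other mature cells. Ngp, which the gate limits, was at 302 (271 to 336) and 17.8 (14.4 to 21.9) CPM in old and young interferon-signature cells, and at 331 and 28.3 CPM in old and young other mature cells. Of 11 measured specific granule genes 8 were higher and 0 lower in the old class, against 5.01% and 23.3% of all genes measured. That list includes Ltf, Camp and Ngp, which the gate limits, so the count is a description. Erythroid markers summed to 33413 CPM in old and 4317 CPM in young interferon-signature cells, 7.74-fold apart, and were 1.35-fold apart between old and young other mature cells. The top 5% of cells held 95.3% of the erythroid UMIs of old interferon-signature cells. The median per cell was 1859 CPM in old and 1358 CPM in young interferon-signature cells. Without cells rich in markers of another type, the sums were 1763 and 1399 CPM.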

How the data were processed

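Per the labels, the libraries are BD Rhapsody single-cell RNA of sorted blood Ly6G+ cells, 1 from old and 1 from young mice. The deposited matrices hold whole UMI counts per gene and barcode, made with Cell Ranger 7.2.0 per the file headers and mm10 per the submitters' processing notes. Whether the platform in the labels and the program in the headers belong together was not checked. Strand, settings and annotation are not given in the sources used here. No doublet caller was run. The members and gene lists were chosen with earlier results of these data known.

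UMIs of all genes were summed per library and class and divided by the class total (CPM). The old classes held 1124768 and 34075140 UMIs (interferon-signature and other mature cells), the young 5213282 and 38759103. Intervals are exact Poisson for CPM and Clopper-Pearson for shares, at 95%. Log2 ratios of single genes used a pseudocount of 1 CPM, a floor of 20 CPM and 1.5-fold for calls. Log2 ratios of summed lists used no pseudocount. Python 3.11.15 with numpy 2.4.6, scipy 1.17.1, pandas 2.3.3 and matplotlib 3.10.9 was used, and the calculation was tested on simulated data.

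Genes named were the rule genes, the 12 largest and 12 smallest ratios shared by both libraries, the leading genes of each list and a fixed set. Others, such as Aim2, H2-D1, Mcl1, Irf1, Irf2, Slfn1, Slfn2, Trim30b, Shisa5, Tlr3, Tlr9, Socs3, Jak1, Eif2ak2, Oasl2, Cxcl10, Mmp9, Hdc and Clec4d, were chosen after their values were seen. Alternatives for the cell limits, gates, floor, scaling and shared barcodes were computed.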

Additional observations from a re-analysis of the deposited data

Results flagged for a closer look

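Summed marker lists of other cell types had opposite ratios in the libraries. The T cell list had a log2 ratio of 0.72 for interferon-signature over other mature cells in the old library and -0.72 in the young one, at 27.6 and 16.8 CPM in the old and 17.5 and 28.8 CPM in the young library. The top 5% of cells held 100% of the T cell list UMIs in both classes of the old library. In the young library they held 80.2% in interferon-signature and 72.1% in other mature cells. The erythroid list had log2 ratios of 1.11 in the old and -1.42 in the young library, and the top 5% of cells held 95.3% of the erythroid UMIs of old interferon-signature cells. Without cells rich in markers of another type, the erythroid sums were 1763 and 1575 CPM in the old and 1399 and 1372 CPM in the young library. Neither difference between libraries was tested.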

How the results depend on the processing

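The share of interferon-signature cells moved with the limits: 6.87% in the old and 17.9% in the young library at 3 UMIs and 0.1%, 1.53% and 5.21% at 10 UMIs and 0.3%, 6.31% and 15.5% thinned to 2000 UMIs, 2.71% and 9.46% without Isg15, and 3.44% and 11% without Irf7. Chosen after seeing the data were the rule without Rsad2 (2.84% and 8.39%), the percentage over UMIs other than S100a8 and S100a9 (5.30% and 13.6%) and cells deep enough for the percentage limit alone to decide (3.35% in the old library). The young share was 2.46 to 3.59 times the old one over these settings. Genes higher in the old class numbered 201 at 3 UMIs and 0.1%, 472 at 10 UMIs and 0.3%, 753 at a floor of 5 CPM (227 in the young) and 177 at a floor of 50 CPM. The log2 ratio of pooled ISGs, old over young interferon-signature cells, was -0.36 at 3 UMIs and 0.1%, -0.40 thinned, -0.38 with granule genes under 1%, -0.22 without Isg15, -0.25 both without marker-rich cells and with equal weight per cell, -0.39 over UMIs other than S100a8 and S100a9, -0.019 centred on the median gene and -0.19 with totals without S100a8 and S100a9. Signs reversed for H2-Aa in the young library (0.13 at 3 UMIs and 0.1%, 0.34 thinned) and Cd74 (0.25 thinned), and in the old library without marker-rich cells for Cd74 (0.31), H2-Aa (0.36) and Bank1 (0.36, and 0.021 with equal weight per cell). The cause was not tested. No paired analysis was possible because there is 1 library per age, and no library could be left out. Depth limits genes under the floor, and the 215 old cells limit the old library most.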
